A study of Mus musculus with 56 samples.

Results

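Heat shock proteins and chaperonins help other proteins to fold, keep unfolded chains from clumping, and carry them across membranes. The cytosolic chaperonin TRiC is a double ring that folds actin and tubulin among other clients, and Hspd1 with its lid Hspe1 forms the equivalent machine of the mitochondrion. Hsp70 proteins bind short exposed stretches of a client in a cycle driven by ATP, J-domain proteins of the Dnaja, Dnajb and Dnajc families bring clients to Hsp70 and start ATP hydrolysis, and small heat shock proteins hold unfolded clients without using ATP. Many of these genes are switched on by heat shock factors through repeated GAA units in their promoters, and those of the endoplasmic reticulum (ER) by the unfolded protein response.

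Members were taken by symbol, as every gene of the Hspa, Hspb, Hspd, Hspe, Hsph, Hsp90, Dnaja, Dnajb and Dnajc families together with Tcp1 and the numbered Cct subunits of TRiC. This gave 75 of the 15063 genes on the arrays, measured by 84 of 21766 probes. They were 9 genes of TRiC, 3 of the mitochondrial chaperonin, 13 of the Hsp70 and Hsp110 families and 1 of the Hsp90 family. Another 7 were Hspb genes, grouped by symbol alone as small heat shock proteins, and the rest were 4 Dnaja, 13 Dnajb and 25 Dnajc genes. Of the 75 members, 67 have 1 probe and 8 have several, and 1 is a pseudogene of Hspe1. Hsp90b1 was the only Hsp90 gene that a probe with a single gene symbol represents.

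The study compared a mouse line of ovarian surface epithelium (OV) with the fibroblast line 3T3, also of mouse, on two-colour oligonucleotide arrays, with 4 arrays for each of 7 targets. Amplified targets were SMART (template switching and PCR) from 10 pg and from 10 ng of total RNA, GA (polyadenylation of the cDNA and PCR) from 10 pg and from 10 ng, IVTIII (3 rounds of T7 transcription) from 10 ng and SM37 (SMART with another primer at a lower temperature) from 10 ng, and the reference was unamplified cDNA from 100 μg. Another 21 arrays set an OV target against a replica made separately from the same RNA, amplified on all but 1 of them, and 3 arrays set an OV target against itself. In 4 arrays separate amplifications were compared that started from aliquots of 1 RNA, taken from a few pooled progenitor cells of embryonic mouse neocortex. No treatment or genetic change is given for either line. As no separate cultures or RNA preparations are described, every array of a target is taken to rest on the same pair of RNA preparations. Its p-values are therefore read as resting on the spread between amplifications and hybridisations, not between cultures. Per the methods the 4 arrays of a target hold 2 replicates, each hybridised with both dye orientations, and the labels do not say which arrays share a replicate. Fewer cells of a type and less RNA per cell cannot be told apart in such bulk RNA.

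The measure is the log2 ratio of OV over 3T3, where 1 is a 2-fold higher level in OV. Its direction was read as Cy5 over Cy3, which is the likely reading and not a stated one, and every sign in the text would turn with it. Read in this way, the epithelial and mesothelial markers Wt1 (3.65), Upk1b (4.26), Krt8 (3.44) and Krt19 (3.17) were higher in OV in unamplified cDNA and the mesenchymal regulator Prrx1 was lower (-3.33), but the collagens Col1a1 (1.47) and Col3a1 (2.15) were also higher in OV and Krt18 was lower (-0.75), so the markers did not all follow the labels. Between 2303 and 19243 probes had a value on an OV against 3T3 array. The first of the GA arrays at 10 pg had 5965 probes with a value, against 14883 to 19243 on the other 3, and opposite-dye arrays of SMART at 10 ng correlated between -0.702 and 0.0927 as deposited, against -0.449 or lower in each of the other 6 targets.

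A gene was tested in a target where it had a value on all 4 arrays, and was called where limma gave a log odds (LOD) of differential expression above 0. In at least 1 of the 7 targets 69 of the 75 members were tested and 14 were tested in all of them, while Dnaja2, Dnajb7, Hspa12b, Hspa13, Hspb3 and Hspb7 were tested in none. Across the 7 targets 24 members were called, 17 of them in 1 target, 4 in 2 and 3 in at least 3. Those 3 were Hspb1, Hspd1 and Dnaja1, and Hspd1 alone was called in both directions.

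In unamplified cDNA 11 of 61 tested members were called, beside 16.3% of all 10173 genes tested. Of the 11, Hspb1, Hspa1l, Dnajb9, Hspa5 and Dnaja1 were higher in OV and Hspa4l, Cct5, Dnajc21, Hspd1, Hsph1 and Dnajc9 were lower, that is 5 and 6 members beside 8.88% and 7.45% of all genes. Over the 61 members the median log2 ratio was -0.17, with 22 above 0 and 39 below, beside a median of -0.0044 over all genes. At a Benjamini-Hochberg adjusted p under 0.05 there were 12 members higher and 27 lower, that is 39 of 61 beside 49.0% of all genes, and 24.1% of all genes higher and 24.9% lower. The plot by family shows these means with the spread of their 4 arrays.

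**Figure D1:**
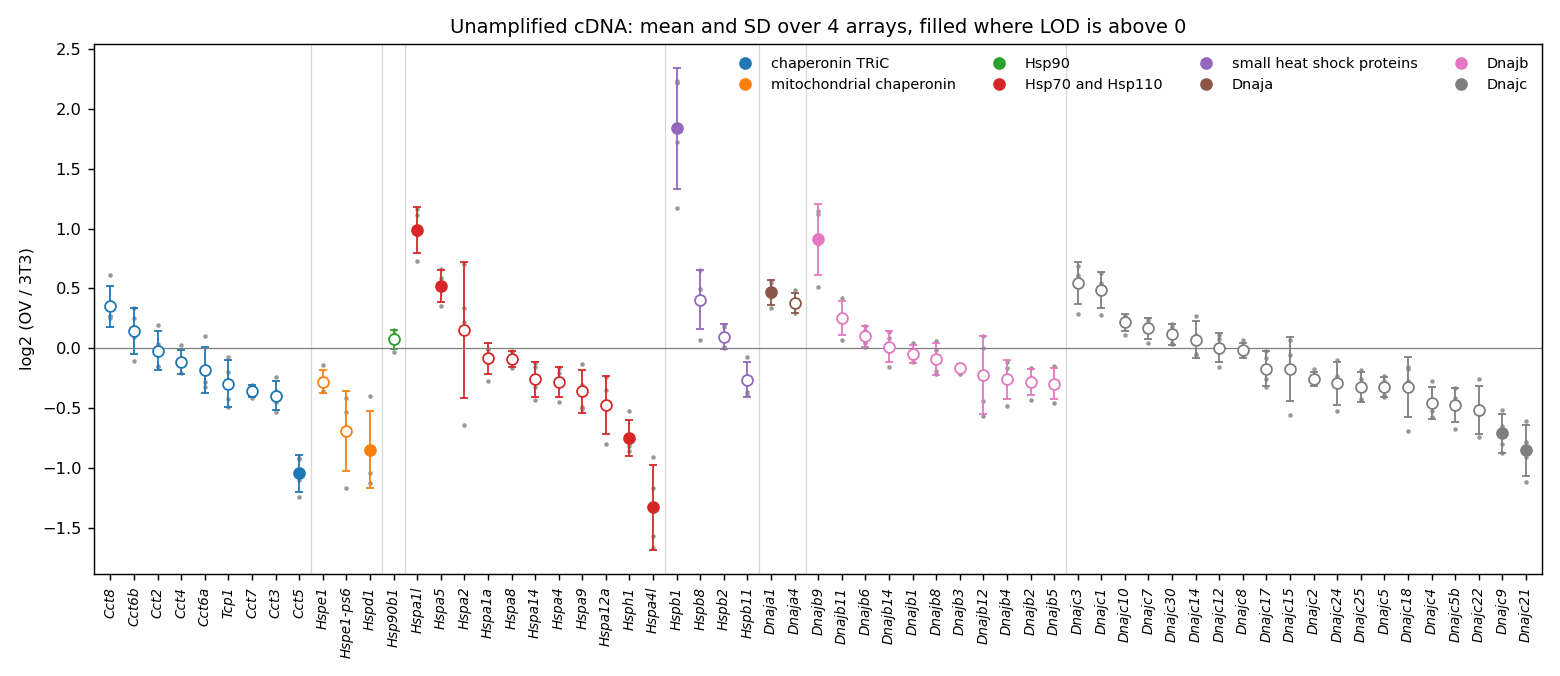
Log2 ratio of OV over 3T3 in unamplified cDNA (vertical axis) for the 61 tested members (horizontal axis), grouped by family. Large points are means of 4 arrays with bars of 1 SD, filled where the LOD is above 0, and small grey points are single arrays. Hspb1 stands highest at 1.84 and Hspa4l lowest at -1.33.

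Hspb1, a small heat shock protein also known as Hsp25 in mouse that binds unfolded clients and actin, had the highest ratio of the members in unamplified cDNA. In the amplified targets it was 0.96, 1.06, 0.67 and 0.99 on the arrays of SMART at 10 pg, 0.55, 1.25, 1.24 and 0.55 in SMART at 10 ng, and 1.59, 0.86, 1.79 and 2.56 in GA at 10 ng. It was 1.14, 1.28, 1.60 and 1.38 in IVTIII and 1.53, 1.72, 2.28 and 2.10 in SM37, and in unamplified cDNA 2.22, 1.73, 1.17 and 2.23. All 24 of these values lie above 0, those of SMART at 10 pg all below those of unamplified cDNA, and those of the other 4 amplified targets overlap them.

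The means of Hspb1 were 0.92 ± 0.17 in SMART at 10 pg, 0.90 ± 0.40 in SMART at 10 ng, 1.70 ± 0.70 in GA at 10 ng, 1.35 ± 0.19 in IVTIII, 1.91 ± 0.35 in SM37 and 1.84 ± 0.50 in unamplified cDNA (SD, n = 4 arrays each), and each was called, with limma adjusted p between 5.5e-05 and 0.0095. With 1 array left out the call was lost in SMART at 10 ng without array 2 or 3 (means down to 0.78, adjusted p up to 0.10) and in GA at 10 ng without array 1 or 3 (means of 1.41 to 1.98 over the 4 fits, adjusted p up to 0.026). The exception was GA at 10 pg, where the arrays gave -2.68, -1.42, -0.04 and -0.33. Over all genes that target correlated with unamplified cDNA at r = -0.06, with the same sign in 48.8%. The departure is thus not particular to Hspb1. The mean of Hspb1 there, -1.12 ± 1.20, was not called (limma adjusted p = 0.13), and without the first array it was -0.60. Both SMART means were lower than that of unamplified cDNA, by a log2 difference of -0.92 ± 0.21 at 10 pg (SE, limma adjusted p = 0.0067) and of -0.94 ± 0.25 at 10 ng (adjusted p = 0.023). The second of these passed the threshold in 4 of 8 fits that left out 1 array, with adjusted p up to 0.077, lost without SMART array 1 or 4 or unamplified array 1 or 4, and with arrays scaled to a common spread it was -0.60 (adjusted p = 0.21).

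Upstream of Hspb1 lie 2 copies of the minimal heat shock element GAANNTTC, counted on both strands within 250 bases before the transcription start. This motif is in 6.69% of 32851 promoter windows of that length and in 11 of the 80 windows of members. RefSeq lists these 80 for 62 members, some with several windows. The 11 belong to 10 genes, namely Cct2, Dnaja1, Dnaja4, Dnajb6, Dnajc27, Hspa1a, Hspb1, Hspb3, Hspd1 and Hspe1. In the longer form GAANNTTC is followed after any 2 bases by another GAA. It is in 0.466% of all windows and in 4 of the 80 windows of members, which belong to Dnajb6, Hspd1 and Hspe1. Hspd1 and Hspe1 lie head to head, with listed spans that overlap. The stretch shown for them was taken from the window of Hspe1. It bears both names because it lies upstream of Hspe1 and within the listed span of Hspd1. Whether the match of Hspd1 is this same stretch was not checked. Its second name therefore gives position only and does not assign the element to Hspd1. These stretches are shown because Hspb1 and Hspd1 are the members called most often, with the motif in capitals, from RefSeq on build GRCm38.p6, at chr5:135887782-135887849 on the plus strand for Hspb1 and at chr1:55088039-55088096 on the plus strand, that of Hspe1, for the other stretch.
Hspb1: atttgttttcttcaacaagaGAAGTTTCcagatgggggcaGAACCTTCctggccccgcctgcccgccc
Hspe1 and Hspd1: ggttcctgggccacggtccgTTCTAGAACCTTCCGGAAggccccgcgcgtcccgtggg

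In unamplified cDNA the other genes tested with an Hspb symbol had ratios nearer to 0 than Hspb1. Hspb8, a partner of the co-chaperone Bag3 in the removal of misfolded proteins, averaged 0.34 ± 0.30 in SMART at 10 ng, 0.39 ± 0.22 in GA at 10 ng and 0.08 ± 0.50 in IVTIII, and none of these passed either threshold. In unamplified cDNA it averaged 0.41 ± 0.25, with 0.65, 0.41, 0.07 and 0.50 on the arrays (limma adjusted p = 0.017, not called by LOD). Hspb2 and Hspb11 lay at 0.10 and -0.27 in unamplified cDNA, neither called by LOD, and Hspb11 had a limma adjusted p of 0.027. In GA at 10 pg Hspb11 was at 1.38, 0.79, 1.00 and 1.99 (mean 1.29 ± 0.52, adjusted p = 0.020, not called by LOD).

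Hspd1, the mitochondrial Hsp60, was called in both directions. It was -0.36, -0.55, -0.25 and -0.29 in SMART at 10 pg, 0.03, -0.64, -0.47 and -1.15 in SMART at 10 ng and -0.63, -0.75, -0.85 and -1.01 in GA at 10 ng. It was -0.34, -0.55, -0.33 and -0.55 in SM37 and -0.82, -0.40, -1.12 and -1.05 in unamplified cDNA. With the exception of 1 SMART array these values were all lower in OV.

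In IVTIII the ratios of Hspd1 were 0.60, 0.94, 1.08 and 1.08, and in GA at 10 pg 3.19, 1.90, 1.91 and 2.04, all of them higher in OV and apart from every value of unamplified cDNA. The mean was 0.93 ± 0.23 in IVTIII, against -0.85 ± 0.32 in unamplified cDNA, a difference of 1.77 ± 0.17 (SE, limma adjusted p = 2.8e-05). The mean in GA at 10 pg was 2.26 ± 0.62, which differed from unamplified cDNA by 3.11 ± 0.32 (adjusted p = 0.00016) and from GA at 10 ng, at -0.81 ± 0.16, by 3.07 ± 0.31 (adjusted p = 0.00019). These 3 differences passed in all fits that left out 1 array. For GA at 10 pg, r over all genes was -0.06 with unamplified cDNA and -0.03 with GA at 10 ng. Shifts in that target are thus not particular to Hspd1. The call of Hspd1 within GA at 10 pg was lost without array 3 or 4 (means of 1.95 to 2.38, adjusted p up to 0.053) and that within GA at 10 ng without array 2 or 3 (means of -0.87 to -0.74). The call of Hspd1 within unamplified cDNA, with a LOD of 0.06, was kept in 1 of the 4 fits with an array left out and lost without array 1, 3 or 4, at ratios between -0.996 and -0.755.

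Separate GA amplifications of OV RNA from 10 pg also differed in Hspd1, by 1.51 and 1.48 on the 2 arrays of replica 1 over replica 2 (LOD above 0), although no 3T3 RNA was on these arrays. Both arrays hold the same pair of amplifications, so this call rests on the spread between hybridisations. The corresponding means were 0.30 at 100 pg, 0.65 at 1 ng and 0.04 at 10 ng for GA, none of them called. In SMART the same ratio lay between -0.14 and -0.01 at the 4 amounts, in IVTIII it was -0.20 and in SM37 it was -0.14.

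Hspe1, the lid of the Hspd1 ring, was at 0.01, 0.09, 0.33 and 0.29 in IVTIII, against -0.30, -0.32, -0.36 and -0.14 in unamplified cDNA. The mean was 0.18 ± 0.16 in IVTIII and -0.28 ± 0.09 in unamplified cDNA, the second lower in OV at a limma adjusted p of 0.012 but not called by LOD. They differed by 0.46 ± 0.11 (SE, adjusted p = 0.0063), the same direction of shift as Hspd1. In GA at 10 pg, where Hspd1 was at 2.26, Hspe1 was at -0.10 ± 0.27 and did not pass the threshold. The ratio of the pseudogene Hspe1-ps6, whose sequence is near to that of Hspe1 so that the 2 signals may not be separate, was -0.69 ± 0.33 in unamplified cDNA (limma adjusted p = 0.0056, not called by LOD).

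**Figure D2:**
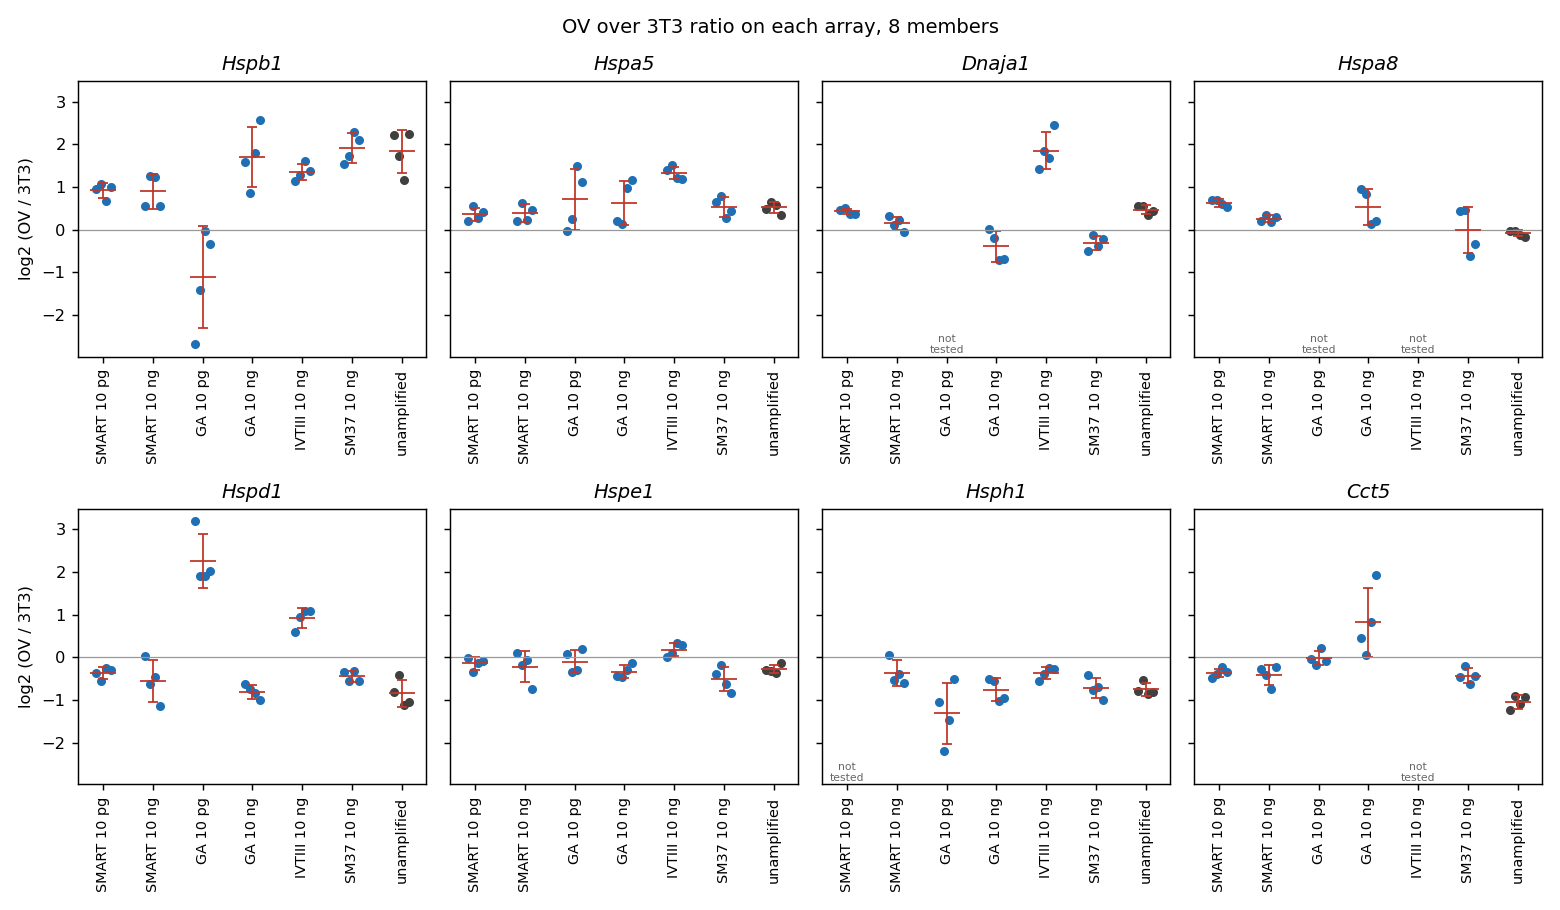
Log2 ratio of OV over 3T3 on each array (vertical axis) for 8 members in 7 targets (horizontal axis). Points are single arrays, blue for amplified and dark grey for unamplified cDNA, and red bars give the mean and 1 SD. Hspd1 lies above 0 in GA at 10 pg and IVTIII, where its means are 2.26 and 0.93, and below 0 on average in the other 5 targets.

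Of the 9 TRiC genes, all tested in unamplified cDNA, 7 had a ratio below 0 and 2 above, and their median was -0.18. Cct5, the epsilon subunit, was the only one called, at -1.25, -0.92, -1.10 and -0.92 (mean -1.05 ± 0.16, limma adjusted p = 0.00028), and its call was kept in all 4 fits with an array left out. Cct3 (-0.40), Cct7 (-0.36) and Tcp1 (-0.30), other ring subunits, were lower at an adjusted p under 0.05 but were not called by LOD. Tcp1 was read by 1 of its 2 probes in unamplified cDNA and by the other in every amplified target. Its difference between them was therefore not tested. Cct8, the theta subunit, lay on the other side at 0.35 ± 0.17 (adjusted p = 0.013, not called), and Cct2, Cct6a and Cct6b at -0.02, -0.18 and 0.14 passed neither threshold.

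The ratio of Cct5 was higher in the amplified targets that tested it than in unamplified cDNA. It averaged -0.37 ± 0.10 in SMART at 10 pg, -0.41 ± 0.23 in SMART at 10 ng, -0.02 ± 0.17 in GA at 10 pg, -0.43 ± 0.18 in SM37 and -1.05 ± 0.16 in unamplified cDNA, and in GA at 10 ng it was above 0, at 0.45, 0.06, 0.84 and 1.94. Each of the 5 amplified targets differed from unamplified cDNA, by 0.68, 0.63, 1.03, 0.62 and 1.87 in the same order with GA at 10 ng last (limma adjusted p between 0.00061 and 0.0081), and these calls held in every fit that left out 1 array. They share the unamplified arrays. Cct5 was not tested in IVTIII.

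Cct7, the eta subunit, showed the widest range between amounts of GA among TRiC genes. Its arrays gave 1.52, 0.39, 1.94 and 1.97 at 10 pg and -1.21, -1.30, -1.43 and -1.78 at 10 ng, against -0.30, -0.42, -0.36 and -0.33 in unamplified cDNA. The 3 sets do not overlap. The mean at 10 pg exceeded that at 10 ng by 2.88 ± 0.35 (SE, limma adjusted p = 0.00052) and that of unamplified cDNA by 1.81 ± 0.33 (adjusted p = 0.003). At 10 ng Cct7 was lower than in unamplified cDNA by a log2 difference of -1.07 ± 0.14 (adjusted p = 0.0013). Between the amounts of GA 30.1% of all genes differed, and r over all genes was -0.03.

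For Cct4, the delta subunit, the value depended on the probe. Only 1 of its 2 probes had values on all IVTIII arrays, at 0.88, 0.46, 0.96 and 1.24, and on all arrays of SMART at 10 pg, at -0.21, -0.32, -0.30 and -0.14. In unamplified cDNA this probe averaged -0.56 ± 0.16 and was called where probes were fitted in place of genes (LOD 0.43, limma adjusted p = 0.0021), and the other averaged 0.33 ± 0.14 and was not, so that the gene mean of -0.11 describes neither. The call of Cct4 in IVTIII was lost without array 1, 3 or 4. For the first probe IVTIII exceeded unamplified cDNA by 1.44 ± 0.16 (SE, limma adjusted p = 6.5e-05) and SMART at 10 pg exceeded it by 0.32 ± 0.10 (adjusted p = 0.03). The second of these passed in 4 of 8 fits with an array left out, lost without SMART array 1 or 4 or unamplified array 2 or 4 (adjusted p up to 0.097).

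Among the Hsp70 and Hsp110 genes 4 of 11 tested were called in unamplified cDNA, 2 in each direction. Hspa4l, an Hsp110-type exchange factor that frees ADP from Hsp70, averaged -0.74 ± 0.43 in SM37 (limma adjusted p = 0.0074, not called by LOD), against -1.33 ± 0.36 in unamplified cDNA, where its arrays gave -1.57, -0.91, -1.67 and -1.17. Hsph1, another Hsp110 exchange factor, averaged -0.37 ± 0.30 in SMART at 10 ng, -1.31 ± 0.72 in GA at 10 pg, -0.76 ± 0.27 in GA at 10 ng, -0.36 ± 0.14 in IVTIII and -0.72 ± 0.24 in SM37, with a call in SM37 that was lost without array 2, 3 or 4. In unamplified cDNA it was at -0.80, -0.53, -0.86 and -0.82 (mean -0.75 ± 0.15, called), so its mean lay below 0 in each target that tested it.

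The first SMART array at 10 ng stood apart for several of these genes. It gave 0.07 for Hsph1, 0.03 for Hspd1 and 0.04 for Hspa4, where the other 3 arrays gave -0.40 to -0.59, -0.47 to -1.15 and -0.40 to -0.50. Without it Hsph1 was at -0.51 and Hspd1 at -0.75 and both were called (limma adjusted p = 0.008 and 0.0046), so that SMART at 10 ng then had 3 called members in place of 1. The share of all genes called rose as well, from 3.60% to 5.45%. Whether the array or the amplification behind it carries the shift of these members was not tested.

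Hspa4, the best studied Hsp110 exchange factor, was higher in OV in IVTIII only, at 1.04, 1.42, 1.81 and 1.69. Its mean of 1.49 ± 0.34 differed by 1.77 ± 0.16 (SE, limma adjusted p = 2e-05) from that of unamplified cDNA, which was -0.28 ± 0.12 with all 4 arrays below 0. In GA at 10 ng it averaged 0.03 ± 0.30 and in SM37 -0.58 ± 0.39, neither called. Between the 2 OV amplifications by GA it was the member with the largest ratio at 10 pg, 1.81, and at 100 pg, 1.30.

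Hspa8, the constitutive cytosolic Hsp70 that is abundant in growing cells, was 0.68, 0.70, 0.59 and 0.52 in SMART at 10 pg and 0.21, 0.35, 0.18 and 0.29 in SMART at 10 ng. In unamplified cDNA it was near 0, at -0.03, -0.04, -0.12 and -0.17, below all 8 SMART arrays. The mean at 10 pg, 0.63 ± 0.08, was called and exceeded unamplified cDNA by 0.71 ± 0.08 (SE, limma adjusted p = 0.00012). The mean at 10 ng, 0.26 ± 0.07, was not called but exceeded it by 0.35 ± 0.10 (adjusted p = 0.032), a difference that was lost in 5 of 8 fits with an array left out. GA at 10 ng gave 0.95 and 0.85 on arrays 1 and 2 but 0.13 and 0.21 on arrays 3 and 4, and SM37 gave 0.44 and 0.47 on the first pair but -0.61 and -0.34 on the second.

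This pattern, in which arrays 1 and 2 stood apart from arrays 3 and 4, recurred in GA at 10 ng for other members. Hspa9, the mitochondrial Hsp70, gave -0.25 and -0.12 on the first pair and -1.03 and -1.15 on the second, and Hspa5 gave 0.21 and 0.14, then 0.98 and 1.17. If these pairs are the dye swaps of 1 replicate each, which is assumed from their numbers, the correlation within pairs over all genes was 0.346 for GA at 10 ng and 0.465 for GA at 10 pg, against -0.214 for unamplified cDNA. With the pairs as a random block, the call of Hspd1 in GA at 10 pg was lost (limma adjusted p = 0.025 but LOD below 0). The same block, chosen after the data were seen, was put into the differences between targets. It left 5 members in place of 9 between GA at 10 ng and unamplified cDNA, with those of Hspa8, Cct2 and Dnajb1 among the lost (adjusted p = 0.067, 0.12 and 0.093), and 6 in place of 9 between the amounts of GA, with those of Cct6a, Dnajb1 and Dnajb2 lost (adjusted p = 0.062, 0.10 and 0.059). The differences of Hspd1 and Cct7 given above passed with it, at adjusted p between 3.7e-05 and 0.011.

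The inducible Hsp70 gene Hspa1a, whose probe may also detect its near-identical copy Hspa1b, was at -0.05, -0.01, -0.01 and -0.27 in unamplified cDNA (mean -0.09 ± 0.13) and was not called there, nor in SMART at 10 ng or SM37. Dnajb1, the inducible Hsp40 that pairs with it, was at -0.05 ± 0.07 in unamplified cDNA. Hspa1l, a testis-enriched relative of Hspa1a, was at 0.10 ± 0.20 in SM37, against a called mean of 0.99 ± 0.19 in unamplified cDNA, where the arrays gave 0.95, 0.73, 1.11 and 1.16, and the difference was -0.89 ± 0.14 (SE, limma adjusted p = 0.00068). Hspa2, another testis-enriched Hsp70, was called in GA at 10 ng only, at 0.71 ± 0.10, and in unamplified cDNA its arrays spread between -0.64 and 0.70. Its call in GA was lost whichever array was left out.

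Hspa5, the Hsp70 of the ER also called BiP, was above 0 on average in every target. In the amplified targets its means were 0.36 ± 0.15 in SMART at 10 pg, 0.38 ± 0.21 in SMART at 10 ng, 0.71 ± 0.71 in GA at 10 pg, 0.63 ± 0.52 in GA at 10 ng, 1.33 ± 0.15 in IVTIII and 0.53 ± 0.23 in SM37, of which only that of IVTIII was called. In GA at 10 pg its probes disagreed, at 1.42 and -0.01. It was at 0.49, 0.66, 0.59 and 0.35 in unamplified cDNA (mean 0.52 ± 0.13, called), where its 2 probes averaged 0.39 and 0.65 and neither was called alone (LOD -0.02 and -0.06). On the self-self array of unamplified OV cDNA, where both channels hold the same target, Hspa5 was at -0.76. For the probe measured in both, IVTIII exceeded unamplified cDNA by 0.94 ± 0.11 (SE, limma adjusted p = 6.6e-05). The call in unamplified cDNA, with a LOD of 0.50, was kept in 1 of 4 fits with an array left out, at 0.48 to 0.58 and lost without array 1, 2 or 3.

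Other chaperones of the ER were put together after their values were seen, and their ratios in unamplified cDNA lay on both sides of 0. Dnajb9, an ER J-protein of the unfolded protein response, was at 1.15, 0.51, 1.12 and 0.87 (mean 0.91 ± 0.30, called, but lost without array 1, 3 or 4). Dnajc3, an ER J-protein also known as p58IPK, averaged 0.55 ± 0.18 and Dnajc1 0.49 ± 0.15, with LOD of -0.07 and -0.24, just short of a call. Dnajb11 (0.25) and Dnajc10 (0.21), ER co-chaperones of BiP, also passed an adjusted p of 0.05, whereas Hsp90b1, the ER Hsp90 known as Grp94, was at 0.07 ± 0.08 and did not. The ER J-proteins Dnajb12 (-0.22 ± 0.33), Dnajb14 (0.01 ± 0.13) and Dnajc18 (-0.33 ± 0.25) and the membrane J-protein Dnajc25 (-0.32 ± 0.12) were not called, and the last 2 had limma adjusted p of 0.038 and 0.0098. Of the amplified targets, IVTIII gave -0.68 ± 0.30 for Dnajc1, against 0.32 for the same probe in unamplified cDNA (SE of the difference 0.17, limma adjusted p = 0.00089). SM37 gave -0.40 ± 0.53 on the other probe, against 0.66, a difference of -1.05 ± 0.23 (SE, limma adjusted p = 0.0044). On that probe GA at 10 ng, at 1.26 ± 1.13, did not differ. Fitted alone in unamplified cDNA, the probe at 0.66 was called (LOD 0.34) and that at 0.32 was not (LOD -4.33).

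The ER stress response element, CCAAT and CCACG held apart by a fixed spacer of any bases, was searched on both strands of the same upstream windows. It is in 0.113% of all windows and in 3 of the 80 windows of members, those of Hspa5, Hsp90b1 and Dnajc3. It is shown in capitals because the 3 genes carry it and yet had ratios of 0.52, 0.07 and 0.55 in unamplified cDNA. The stretches are from RefSeq on GRCm38.p6, at chr2:34772005-34772063 (plus strand) for Hspa5, chr10:86705513-86705676 (minus strand) for Hsp90b1, with 2 copies, and chr14:118937807-118937865 (plus strand) for Dnajc3. A match is a description of these letters and not evidence of binding.
Hspa5: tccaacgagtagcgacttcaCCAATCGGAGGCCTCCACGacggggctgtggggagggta
Hsp90b1: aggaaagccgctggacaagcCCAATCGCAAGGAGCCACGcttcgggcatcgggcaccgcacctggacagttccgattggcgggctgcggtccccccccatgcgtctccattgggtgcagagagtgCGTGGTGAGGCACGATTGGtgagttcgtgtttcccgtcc
Dnajc3: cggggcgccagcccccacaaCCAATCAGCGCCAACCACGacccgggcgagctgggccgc

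Hsp90b1 stayed near 0 in SMART (0.13 ± 0.07 at 10 pg and 0.10 ± 0.23 at 10 ng), IVTIII (0.04 ± 0.20) and SM37 (-0.05 ± 0.37). In GA it was at -1.85, -0.92, -0.75 and -1.24 at 10 pg and at 0.45, 0.04, 0.96 and 1.64 at 10 ng, sets that do not overlap, and neither mean was called by LOD. The difference of -1.97 ± 0.37 between these amounts passed the threshold (SE, limma adjusted p = 0.0043). That of -1.26 ± 0.24 between GA at 10 pg and unamplified cDNA passed as well (adjusted p = 0.0038). Of all genes 30.1% and 36.5% passed in these comparisons, in that order.

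Among J-domain proteins, Dnaja1, a cytosolic partner of Hspa8, was called higher in SMART at 10 pg, IVTIII and unamplified cDNA. Its arrays gave 0.45, 0.51, 0.38 and 0.37 in SMART at 10 pg and 1.43, 1.84, 1.68 and 2.45 in IVTIII, against 0.56, 0.55, 0.34 and 0.43 in unamplified cDNA. IVTIII exceeded unamplified cDNA by 1.38 ± 0.19 (SE, limma adjusted p = 0.00022). In GA at 10 ng, at -0.39 ± 0.37, and in SM37, at -0.30 ± 0.16, the ratio lay on the other side, with differences from unamplified cDNA of -0.86 ± 0.18 (adjusted p = 0.0086) and -0.77 ± 0.12 (adjusted p = 0.0006). Its call in unamplified cDNA was lost whichever array was left out, at ratios between 0.44 and 0.51, and that in SMART at 10 pg was lost without array 1, 3 or 4, at ratios between 0.40 and 0.44.

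Dnajc9, a J-protein that also handles histones, was at -1.13, -0.89, -1.20 and -1.40 in GA at 10 ng (mean -1.15 ± 0.21) and at -0.81, -0.52, -0.88 and -0.65 in unamplified cDNA (mean -0.71 ± 0.16), and both were called. In SM37 (-0.75 ± 0.39), SMART at 10 ng (-0.26 ± 0.25) and IVTIII (-0.13 ± 0.31) it was not called by LOD. Dnajc21, which acts in the maturation of the large ribosomal subunit, was at -0.23 ± 0.23 in IVTIII, against -0.91, -0.61, -1.12 and -0.78 in unamplified cDNA (mean -0.86 ± 0.22, called, and like Dnajc9 lost without array 1), a difference of 0.63 ± 0.15 (SE, limma adjusted p = 0.0055).

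Some members were called in an amplified target while their ratio in unamplified cDNA was small. Dnajb2, a J-protein with ubiquitin interaction motifs, was at -1.37, -1.09, -1.45 and -1.10 in SM37 and at -0.62, -0.81, -1.35 and -1.63 in GA at 10 ng, against -0.28, -0.17, -0.26 and -0.43 in unamplified cDNA. Neither amplified set overlaps unamplified cDNA, and the differences were -0.96 ± 0.12 and -0.82 ± 0.21 (SE, limma adjusted p = 0.00022 and 0.021). The call in GA was lost without array 2, 3 or 4, and the difference of GA from unamplified cDNA without GA array 3 or unamplified array 1, 2 or 3 (adjusted p up to 0.060). Dnajc7, which bridges Hsp70 and Hsp90, was at -0.83 ± 0.24 in SM37 and at 0.17 ± 0.09 in unamplified cDNA, and Hspa14, an Hsp70 of the ribosome, at -1.03 ± 0.30 in SM37 and -0.26 ± 0.14 in unamplified cDNA.

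Counted over the 4-array fits, called members made up 3 of 19 tested in SMART at 10 pg (background 9.14%), 1 of 52 in SMART at 10 ng (3.60%), 1 of 31 in GA at 10 pg (5.77%) and 7 of 44 in GA at 10 ng (8.54%). They were 9 of 36 in IVTIII (22.8%) and 6 of 44 in SM37 (13.4%), where the percentages are those of all genes called in the same target. The share of members was 15.8%, 1.92%, 3.23%, 15.9%, 25.0% and 13.6% in that order, near the background in IVTIII and SM37, below it in SMART at 10 ng and GA at 10 pg, and above it in SMART at 10 pg and GA at 10 ng. Each of these gaps is a few genes. Leaving out 1 array gave 2 to 5 called members in GA at 10 ng, beside 3.78% to 5.02% of all genes.

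The split by direction differed between targets. In IVTIII 8 members were higher and 1, Dnajc25, was lower, beside 11.9% of all genes higher and 10.8% lower. In SM37 Hspb1 was higher and 5 members were lower (4.06% and 9.30% of all genes), and in GA at 10 ng 2 were higher and 5 lower (2.17% and 6.37%). All 3 members called in SMART at 10 pg were higher (6.01% of all genes, with 3.13% lower), and these were Hspb1, Hspa8 and Dnaja1. The single called members of SMART at 10 ng, Hspb1, and of GA at 10 pg, Hspd1, were higher, beside 2.55% of all genes higher and 1.04% lower in SMART at 10 ng and 2.94% and 2.83% in GA at 10 pg.

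At an adjusted p under 0.05 the members past the threshold were 7 of 19 in SMART at 10 pg, beside 33.6% of all genes, and 1 of 52 in SMART at 10 ng, beside 7.34%, this 1 being Hspb1. In GA they were 8 of 31 at 10 pg, beside 17.9%, and 17 of 44 at 10 ng, beside 29.1%. In IVTIII they were 19 of 36, beside 56.3%, and in SM37 23 of 44, beside 43.8%. With this rule the members' share lay near the background in SMART at 10 pg and IVTIII and below it in SMART at 10 ng. It lay above it in SM37 and at both amounts of GA. Each of these gaps is again a few genes.

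**Figure D3:**
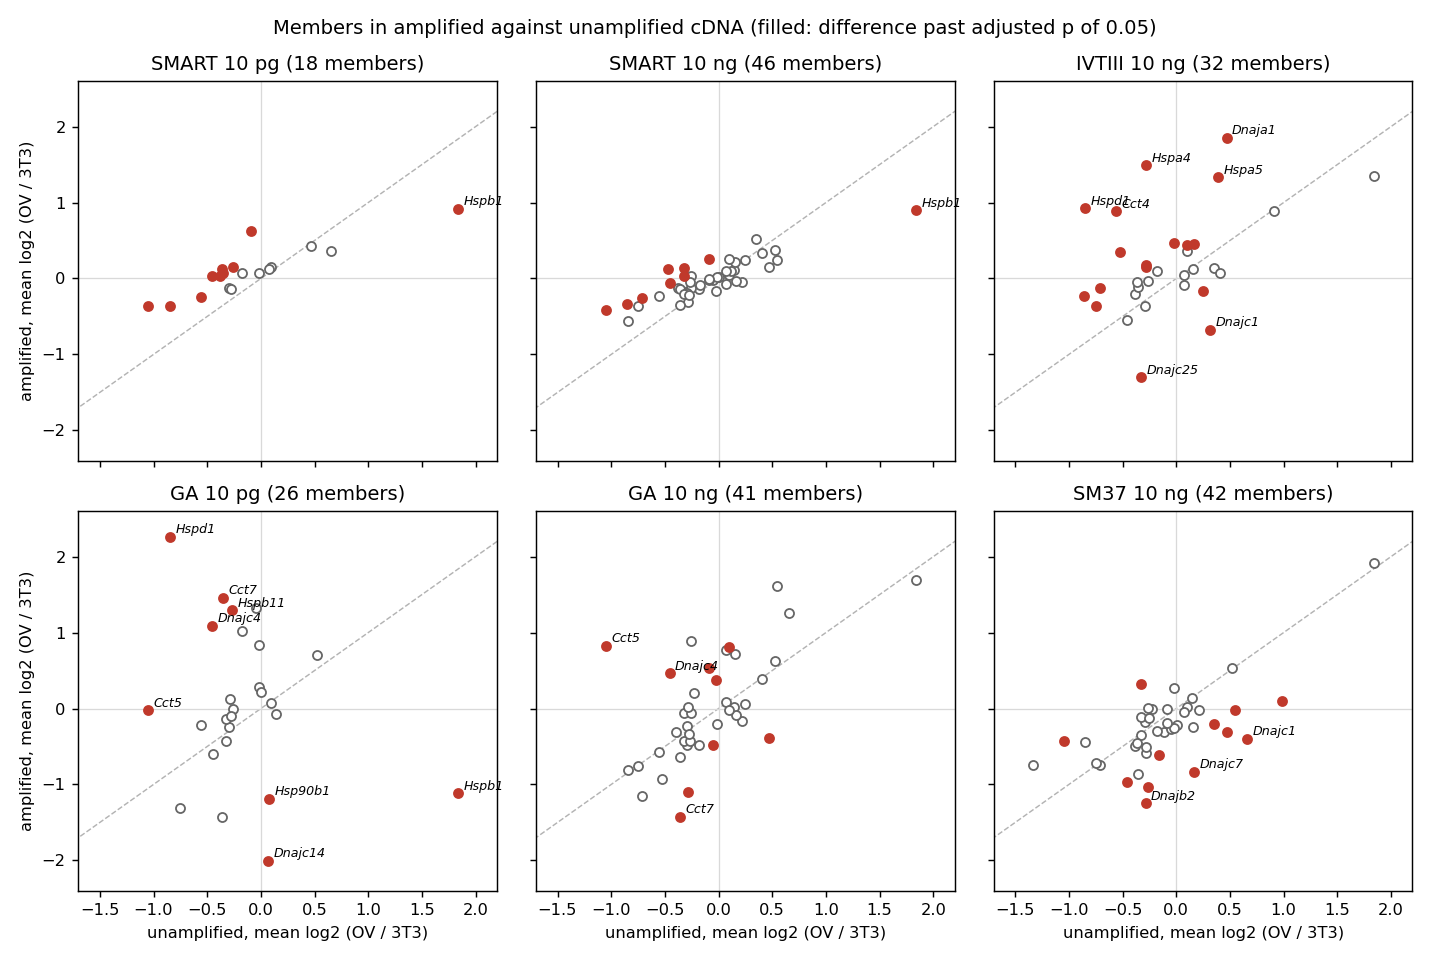
Mean log2 ratio of OV over 3T3 in each amplified target (vertical axis) against that in unamplified cDNA (horizontal axis) for members tested in both, over the same probes. Filled red points differ between the targets at a limma adjusted p under 0.05, names are given for differences of at least 0.9, and the dashed line marks equal ratios. Points of SMART lie on a line flatter than the dashed one (slopes of 0.45 at 10 pg and 0.48 at 10 ng, beside 0.50 in IVTIII and 0.64 in SM37). Hspb1 is at 0.90 in SMART at 10 ng. Hspd1 lies far above the dashed line in IVTIII and in GA at 10 pg.

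The differences from unamplified cDNA passed an adjusted p of 0.05 for 10 of 18 members tested in SMART at 10 pg (34.2% of all genes), 9 of 46 in SMART at 10 ng (17.9%), 8 of 26 in GA at 10 pg (36.5%) and 9 of 41 in GA at 10 ng (22.1%). They did so for 17 of 32 in IVTIII (48.5%) and 12 of 42 in SM37 (38.2%). The 6 comparisons share the unamplified arrays. In IVTIII 14 of the 17 were higher than in unamplified cDNA and in SM37 10 of the 12 were lower. With the hybridisation number as a block 2 members in place of 9 differed in SMART at 10 ng.

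Across members, r between an amplified target and unamplified cDNA was 0.87 for SMART at 10 pg (n = 18 genes), 0.87 for SMART at 10 ng (n = 46), -0.23 for GA at 10 pg (n = 26), 0.62 for GA at 10 ng (n = 41), 0.41 for IVTIII (n = 32) and 0.67 for SM37 (n = 42). Over all genes r was 0.81, 0.76, -0.06, 0.61, 0.50 and 0.48 in the same order. In SMART at 10 pg 10 of 18 members had the same sign as in unamplified cDNA, beside 76.7% of all genes. In SMART at 10 ng 37 of 46 did, beside 74.3%. For GA these were 13 of 26 at 10 pg, beside 48.8%, and 30 of 41 at 10 ng, beside 69.6%. They were 21 of 32 in IVTIII, beside 65.4%, and 30 of 42 in SM37, beside 63.9%. Genes are not independent replicates, and all targets are taken to share their RNA preparations, since no separate ones are described. The slope on unamplified cDNA was 0.45 and 0.48 for members in SMART at 10 pg and 10 ng, beside 0.35 and 0.34 for all genes. In GA it was -0.43 at 10 pg, beside -0.10, and 0.90 at 10 ng, beside 0.52. It was 0.50 in IVTIII, beside 0.56, and 0.64 in SM37, beside 0.37, so slopes below 1 were not particular to SMART.

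Both PCR methods were also compared between 10 pg and 10 ng, and the share of members that passed was near that of all genes in each. For SMART no member of 19 passed the limma threshold, beside 0.0943% of all genes (1 of 1061). There 3 members had an unadjusted limma p under 0.05, a threshold at which all genes were not counted. The ratios at both amounts correlated at r = 0.92 across members. For GA 9 of 26 passed, beside 30.1% of all genes, with r = -0.25. Whether the methods differ in this was not tested. Hspd1, Cct7, Hspb1, Dnajc14, Hsp90b1, Dnajb1, Hspb11, Cct6a and Dnajb2 were these 9. Dnajc14 was at -1.26, -0.72, -2.82 and -3.22 at 10 pg and at 0.08 ± 0.25 at 10 ng, and Hspb11 at 1.29 ± 0.52 and -0.43 ± 0.08.

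The OV replica arrays show how far members moved with no difference in the cells. The SD of the replica ratio over members was 0.416, 0.159, 0.067 and 0.118 in SMART at 10 pg, 100 pg, 1 ng and 10 ng, and 0.706, 0.439, 0.249 and 0.341 in GA at the same amounts, each the mean of 2 arrays. It was 0.228 in IVTIII, 0.360 in SM37 and 0.107 on the single array of unamplified cDNA. Over all genes measured the SD was 0.329, 0.167, 0.072 and 0.136 in SMART and 0.631, 0.358, 0.229 and 0.253 in GA. It was 0.293 in IVTIII, 0.360 in SM37 and 0.122 in unamplified cDNA. Members thus spread more than all genes at every amount of GA, and in SMART at 10 pg but not at the other 3 amounts. They did not do so in IVTIII, SM37 or unamplified cDNA. After turning, the arrays of SMART at 1 and 10 ng and of GA at 10 ng correlated negatively over all genes (-0.31, -0.17 and -0.24), so that their means are smaller than the single arrays.

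Most members stayed within a 2-fold ratio between replicas. In GA 12 of 60 members went beyond it at 10 pg and 4 of 48 at 100 pg, and at 1 ng and 10 ng none did, in SMART 2 of 46 did at 10 pg, in SM37 1 of 17. Calls were made in GA at 10 pg for Hspa4, Cct4 and Hspd1 (3 of 60, beside 3.14% of all genes), at 100 pg for Hspa4 and Dnajc7 (2 of 48, 1.33%) and at 1 ng for Cct3 and Dnajb2 (2 of 31, 1.83%), and in SM37 for Cct8 (1 of 17, 7.13%). Cct8 was at 1.75 and 0.86 on the SM37 arrays. Both arrays of a set hold the same 2 amplifications, so these calls rest on the spread between hybridisations and not between amplifications. In SMART at all 4 amounts, IVTIII and GA at 10 ng no member was called by LOD, where all genes gave 3.53% in SMART at 10 pg, 0.0781% at 10 ng and 2.81% in IVTIII. At an unadjusted p under 0.05 members were 14, 4, 0 and 0 in SMART and 32, 11, 8 and 0 in GA from low to high amounts. They were 8 in IVTIII and 2 in SM37. The share of all genes at this threshold was not counted, so these counts have no background.

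**Figure D4:**
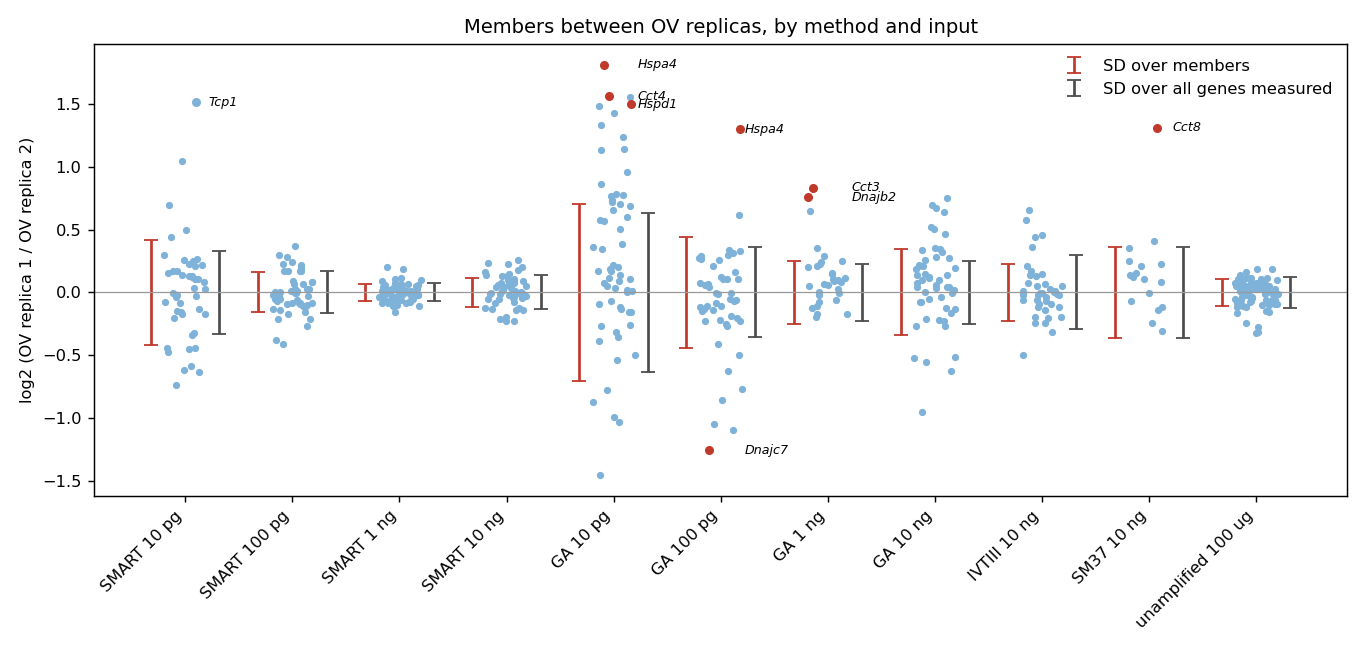
Log2 ratio of OV replica 1 over OV replica 2 (vertical axis) by method and input (horizontal axis). Each point is a member, the mean of 2 arrays or the value of 1 array for unamplified cDNA, red and named where the LOD is above 0 (Tcp1 in SMART at 10 pg is named without a call). Bars span 1 SD on each side of 0, red over members and grey over all genes measured, from 0.706 over members in GA at 10 pg to 0.067 in SMART at 1 ng.

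Between amplifications of aliquots of the neocortical progenitor RNA, 2 arrays per method hold the same pair of amplifications. The SD over members was 0.341 in GA and 0.235 in SMART, beside 0.362 and 0.182 over all genes. Dnajc19 (1.01), Dnajb1 (0.87) and Cct8 (-0.82) were called in GA (3 of 55, beside 4.54% of all genes) and Dnaja1 (-0.83) in SMART (1 of 50, beside 0.219%). On the self-self arrays of OV, 1 per target, the SD over members was 0.128 for GA as for IVTIII and 0.144 for unamplified cDNA. Over all genes it was 0.139, 0.134 and 0.139 in the same order. The farthest member was Hspa5 at -0.76 in unamplified cDNA.

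Co-chaperones, folding enzymes and stress regulators that work with the members were described from a list of 73 genes, of which 66 were on the arrays. In unamplified cDNA 14 of 57 tested were called, or 24.6% beside 16.3% of all genes, 7 in each direction, with a median ratio of -0.09. In the 4 fits with an array left out 6 to 9 were called, beside 7.81% to 15.3% of all genes. The ER lectin chaperone Calr (1.59 ± 0.25) and the disulphide isomerases P4hb (1.42 ± 0.15) and Pdia4 (1.15 ± 0.21) were higher in OV, and Ptges3, the Hsp90 co-chaperone p23, was lower (-1.16 ± 0.27), with limma adjusted p of 0.0006 or less. In the amplified targets 2 of 20 were called in SMART at 10 pg (9.14% of all genes), 2 of 48 in SMART at 10 ng (3.60%), 3 of 29 in GA at 10 pg (5.77%), 5 of 34 in GA at 10 ng (8.54%), 5 of 29 in IVTIII (22.8%) and 6 of 34 in SM37 (13.4%). P4hb averaged 1.06 in SMART at 10 pg, 0.83 in SMART at 10 ng, 1.58 in GA at 10 pg, 0.67 in GA at 10 ng, 1.72 in IVTIII and -0.23 in SM37, beside 1.42 in unamplified cDNA.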

How the data were processed

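The authors deposited log2 ratios of both dyes on each of 56 arrays, which per the paper followed from background-subtracted spot intensities after a lowess fit per print tip of each array in limma. As the files hold ratios alone, brightness is unknown, and depth is given as the number of probes that carry a value. The sources used here do not name a genome build. Of 21997 probes, 231 controls were left out, and 16632 of the rest had 1 gene symbol. Ratios were turned by the dyes in the labels. The first IVTIII array names 3T3 for both channels, the second GA array is described as replicas and SMART arrays of 1 ng are described with another amount and those of 10 ng in micrograms, and for these the titles and dyes were followed. Promoter windows came from RefSeq for 62 members.

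Genes were means of the probes with a value on all 4 arrays. Ratios were fitted with lmFit and eBayes of limma 3.58.1 in R 4.3.3 (prior proportion 0.01) over all genes, and differences over 8 arrays with Benjamini-Hochberg adjustment at 0.05. Fits were tested on simulated data. Plots used Python 3.11.15 with matplotlib 3.10.9. Named were all TRiC and Hsp90 members, the principal Hsp70, Hsp110, Hsp60, small heat shock and J-proteins, every member called in unamplified cDNA, the 3 largest called members per amplified target and per difference, the largest per replica set and up to 4 called co-chaperones. Outside that rule, Dnajb14, Dnajc10, Dnajc18, Dnajc19, Hspb2, Hspb11 and Hspe1-ps6 were given values after these were seen. Members, lists and rules were chosen with earlier results of these data known. Same-numbered arrays of 2 targets did not deviate together (correlations of -0.209 to 0.241), so the number was not taken as a pairing. Alternatives covered the call rule, missing values, a dye term, array scaling, assumed dye-swap pairs (for the differences chosen after the data were seen), probes in place of genes, the block and leaving out each array.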

Additional observations from a re-analysis of the deposited data

Results flagged for a closer look

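Of 204 sets of 4 arrays, over the 41 members named by the rule, 5 had 1 array far from the others, and about 1 in 20 would by chance. Hspd1 in GA at 10 pg was at 3.19 on array 1, against 1.90 to 2.04 on the others, and Dnajc25 in GA at 10 pg at -1.11 on array 4, against 0.17 to 0.19. Tcp1 in GA at 10 ng was at 0.73 on array 4, against 0.21 to 0.30. In unamplified cDNA Cct8 was at 0.61 on array 1, against 0.26 to 0.27, and Hspa1a at -0.27 on array 4, against -0.05 to -0.01.

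For 24 differences past the limma threshold all 4 arrays of the first target moved one way and all 4 of the second the other way. Between GA at 10 pg and at 10 ng these were Hspd1 (difference 3.07), Cct7 (2.88), Dnajb1 (1.80), Cct6a (1.5), Hsp90b1 (-1.97) and Hspb1 (-2.82). Between GA at 10 pg and unamplified cDNA they were Hspd1 (3.11), Cct7 (1.81), Dnajc4 (1.54) and Hspb1 (-2.96). Between GA at 10 ng and unamplified cDNA they were Cct5 (1.87), Dnajc4 (0.92) and Hspa8 (0.62). Between IVTIII and unamplified cDNA they were Hspa4 (1.77), Hspd1 (1.77), Cct4 (1.44, on the 1 probe measured in both) and Hspe1 (0.46). Between SM37 and unamplified cDNA they were Dnajc25 (0.65), Dnaja1 (-0.77) and Dnajc7 (-1), and between SMART and unamplified cDNA Hspa8 (0.71 at 10 pg and 0.35 at 10 ng), Hspa9 (0.49 at 10 pg) and Hspa14 (0.42 at 10 pg). With an array left out, that of Cct6a passed in 2 of 8 fits, kept without array 1 or 2 at 10 pg, and that of Dnajb1 in 4 of 8, lost without any array at 10 ng. Those of Hspa8 passed in 2 of 8 for GA, kept without GA array 3 or 4, and in 3 of 8 for SMART at 10 ng, lost without SMART array 2 or 3 or unamplified array 1, 3 or 4.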

How the results depend on the processing

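Over 66 named differences, 45 passed in each fit that left out 1 array, and no named value that was called reversed its direction under any alternative fitted by gene. Fits of probes in place of genes were not part of this check. With an adjusted p under 0.05 in place of LOD, called members were 7 in SMART at 10 pg, 8 in GA at 10 pg, 17 in GA at 10 ng, 19 in IVTIII, 23 in SM37 and 39 in unamplified cDNA, and co-chaperones were 6, 7, 11, 15, 15 and 34 in that order and 5 in SMART at 10 ng. Between replicas that rule gave 1 in IVTIII, 5 in SMART at 10 pg, 11 in GA at 10 pg and 0 in GA at 100 pg, and the share of all genes was not counted there. A dye term gave 3 in GA at 10 ng. Dye-swap pairs as a random block gave 6 in SMART at 10 pg, 0 in GA at 10 pg and 17 in unamplified cDNA, and, put into the differences after the data were seen, 5 differing members in place of 9 in GA at 10 ng. Array scaling gave 5 called members in SMART at 10 pg and 2 in GA at 10 pg, and 6 and 3 members that differed from unamplified cDNA in SMART at 10 pg and at 10 ng. Values on at least 3 of 4 arrays gave 18 differing members in GA at 10 pg against unamplified cDNA and 14 against GA at 10 ng.

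With the replicate block, the hybridisation number, 2 members differed between SMART at 10 ng and unamplified cDNA in place of 9, and it moved no other count of differing members by over 1.5 times. In no difference did every array correlate best with its own number.

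Leaving out 1 array gave, for called members, 6 to 7 in IVTIII, 2 to 5 in GA at 10 ng (2 without array 3), 0 to 3 in SMART at 10 ng (0 without array 2 or 3, 3 without array 1), 4 to 6 in SM37, 2 to 3 in SMART at 10 pg, 0 to 2 in GA at 10 pg (0 without array 3 or 4, 2 without array 2, and 1 of 60 tested without array 1) and 5 to 11 in unamplified cDNA (5 without array 1). Co-chaperones were 1 to 3, 3 to 4, 1 to 3, 3 to 4, 1 to 2, 0 to 5 and 6 to 9 in that order. Of all genes 14.2% to 18.8%, 3.78% to 5.02%, 1.06% to 5.45%, 7.78% to 10.1%, 4.70% to 6.62%, 1.98% to 5.53% and 7.81% to 15.3% were called in these fits. With every array kept these shares were 22.8%, 8.54%, 3.60%, 13.4%, 9.14%, 5.77% and 16.3%. Differing members were 14 to 18 in IVTIII, 4 to 10 in GA, 2 to 10 in SMART, 11 to 14 in SM37, 7 to 10 in SMART at 10 pg and 8 to 19 in GA at 10 pg, 0 to 1 between SMART amounts and 7 to 13 between GA amounts. Except where named, the cause was not tested.

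The SD over members between replicas as a scaled median absolute deviation was 0.126 and 0.0622 in SMART at 100 pg and 1 ng, 0.260 and 0.167 in GA at 100 pg and 1 ng, 0.134 in IVTIII, 0.195 in SM37 and 0.0989 in unamplified cDNA. On single arrays it was 0.225 to 0.276 in IVTIII, 0.272 to 0.487 in SM37, 0.402 to 0.612, 0.180 to 0.225, 0.113 to 0.114 and 0.195 to 0.234 in SMART from 10 pg to 10 ng, and 0.585 to 0.873, 0.454 to 0.508, 0.248 to 0.289 and 0.466 to 0.664 in GA. The number of arrays, of RNA preparations and of probes with a value at 10 pg limits these results.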
